A study of Mus musculus with 12 samples.

Results

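The probes described here are the 83 spots of a mouse long noncoding RNA and mRNA array whose names give a lincRNA exon of the mm9 mouse genome build, an exon number and a plus or minus sign. They were found by name alone: non-control probes whose name contains "linc" but begins with neither "human" nor "mouse". They make up 83 of 60915 non-control probes. Their names run from MM9LINCRNAEXON10101+_P1 to MM9LINCRNAEXON12051-_P1, and each probe is called below by its exon number and sign (10101+, 12051-). Of the 83 probes, 50 carry a plus sign and 33 a minus sign. They cover 71 exon numbers, 12 of which have a probe of each sign. The files pair these names with no gene, chromosome position or probe sequence, and they do not say what the sign stands for, so no locus is given for any probe.

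Long intergenic noncoding RNAs (lincRNAs) are transcribed from stretches between protein-coding genes, and most are spliced and polyadenylated like messenger RNAs but encode no known protein. They are as a class less abundant and more restricted to particular tissues than messenger RNAs. Those studied in detail act in several ways, some by binding chromatin or its modifying complexes near their own site of transcription and others as scaffolds or decoys for proteins and microRNAs. In the brain many of them differ between regions and cell types.

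RNA came from male BALB/c mice, 10 weeks old and with no treatment named in the labels, whose brains were dissected into 4 regions: the olfactory bulb, the first relay of smell; the hypothalamus, which controls hormone release and body homeostasis; the hippocampus, needed for forming memories; and the cerebellum, which coordinates movement. The animals differed in no genotype or treatment that the labels give, so the comparison is between regions only. Each region had 3 scans, 12 in all, but scans 1 and 3 of the hippocampus and scans 1 and 3 of the cerebellum were nearly identical. Over 14908 bright probes those pairs differed with an SD of 0.0277 and 0.0262 on the log2 scale, against 0.314 to 0.510 for the other scan pairs of 1 region. Each such pair was averaged and counted as 1 sample, which left 10 arrays, namely 3 each for olfactory bulb and hypothalamus and 2 each for hippocampus and cerebellum. The series gives 3 mice for the arrays, but the labels tie no array to an animal, and the p-values below therefore measure only how far these arrays spread, which may be technical. Because 0 of 22 genes listed as region markers have a probe that carries their name, the region labels were not checked against markers.

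Most of the lincRNA exon probes gave a signal above background, but a weak one. The scanner software marks a spot as well above background when its signal exceeds the local background by a set margin. Of the 83 probes, 69 (83.1%) were so marked on all 12 scans, against 84.3% of all probes on the array, 58.6% of those with human lincRNA names and 60.9% of those with mouse lincRNA names. Another 10 probes were marked on some scans and 4 (4.82%) on no scan, against 4.17% of all probes. The probes on no scan were 11014+, 11109+, 11170+ and 11727+. The median processed signal of the 83 probes lay between 102 and 186 intensity units on a scan, whereas the median over all probes lay between 294 and 448 units. The 75th percentile of a scan, to which levels are scaled below, lay between 1118 and 1632 units.

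Detection was alike in the 4 regions, counted by scan. Scans 1 and 3 of the hippocampus and of the cerebellum are nearly identical, so the 3 scans there stand for 2 arrays. A mark on all scans of a region, or on none, is therefore met more easily in these 2 regions. On all 3 scans of a region, 73 of the 83 probes were well above background in the olfactory bulb (88.0%, against 88.6% of all probes), 74 in the hypothalamus (89.2% against 89.1%), 71 in the hippocampus (85.5% against 86.9%) and 76 in the cerebellum (91.6% against 90.8%). The number marked on none of a region's scans was 4 for the olfactory bulb, 4 for the hypothalamus, 8 for the hippocampus and 5 for the cerebellum. The same count by region is not given for all probes. The scan with the fewest marked was hippocampus scan 2, with 71 of 83 (85.5%, against 87.9% of all probes), and it was also the lowest scan over all probes. Across the 12 scans the number ran from 71 to 78.

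A few dim probes were marked in some regions only. Probe 10618+ was well above background on 3 cerebellum scans, 2 olfactory bulb scans, 1 hypothalamus scan and no hippocampus scan. Probe 11381+ was marked on 3 olfactory bulb scans, on 1 scan each of the hypothalamus and cerebellum, and on none of the hippocampus. Probe 11661- was marked on all scans of the olfactory bulb, hypothalamus and cerebellum and on no hippocampus scan. For all 3 of these probes the hippocampus was thus the region without a mark, while their signals in the other regions also lay close to the limit of detection. Its partner 11661+ was marked on 2 scans each of the olfactory bulb, hypothalamus and hippocampus and on none of the cerebellum, and 11170- on 2, 1, 0 and 1 scans of the olfactory bulb, hypothalamus, hippocampus and cerebellum.

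Levels are given as log2 of the processed signal minus the 75th percentile of the same scan, so that a level of 0 is the signal at that percentile and each step of 1 is a 2-fold change. Testing was limited to probes that every scan of 1 or more regions marked as well above background, and 77 of the 83 (45 plus, 32 minus) met this. The test was limma's moderated F test across the 4 region means, with Benjamini-Hochberg adjustment over all 56573 probes tested on the array.

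The 4 regions differed in 10 of the 77 probes tested (13.0%) at an adjusted p under 0.05, whereas 36.1% of all probes tested differed. The share was 6.35% for probes with human lincRNA names and 8.33% for those with mouse lincRNA names, and these shares were not tested against each other. At an unadjusted p under 0.05 the count was 15. Of the 77, 3 dim probes (10618+, 11381+ and 11561-) passed the filter on signal only through their highest region, and without these 3 the count was 9 of 74. Region means spanned at least 2-fold in 16 of the 77 probes (20.8%), against 27.1% of all probes tested, and the median span was 0.52 on the log2 scale against 0.64 over all. The spread between arrays of 1 region was wider for the lincRNA exon probes, with a median SD of 0.305 (0.0671 to 1.63) against 0.206 over all probes tested. The part that this spread or the weak signal had in the low count of differing probes was not tested.

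By region means, the hippocampus was the highest or the lowest region of every probe that differed except 10627+, with no common direction. Some of these margins were small. The hippocampus mean of 11641- was -2.201, against -2.205 in the hypothalamus and -2.218 in the olfactory bulb. For 11010+ it was 1.30, against 1.28 in the hypothalamus. The same tally over all differing probes of the array was not made, so the count is not read as a trait of these probes. Among the 10, the highest region was the hippocampus for 5, the cerebellum for 3 and the olfactory bulb for 2. The lowest region was the hippocampus for 4, the cerebellum for 4 and the hypothalamus for 2. Over all 77 probes the highest region was the hippocampus for 25 (32.5%, against 22.7% of all probes tested), the cerebellum for 18 (23.4% against 31.2%), the olfactory bulb for 17 (22.1% against 23.1%) and the hypothalamus for 17 (22.1% against 23.0%). The lowest region over all 77 was the cerebellum for 26 (33.8% against 29.0%), the hippocampus for 19 (24.7% against 27.2%), the olfactory bulb for 18 (23.4% against 24.2%) and the hypothalamus for 14 (18.2% against 19.6%). In bulk tissue, fewer cells of a type and less RNA per cell cannot be told apart.

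Probe 10627+ was high in the cerebellum. Its levels were -1.64 and -1.81 on the 2 cerebellum arrays. Olfactory bulb arrays stood at -3.18, -3.45 and -3.34, hypothalamus arrays at -3.94, -4.14 and -4.06, and hippocampus arrays at -3.70 and -3.96. Both cerebellum arrays lay above all 8 arrays of the other regions, and the hippocampus and hypothalamus arrays overlapped. The cerebellum exceeded the hypothalamus by 2.32 (SE 0.13), which is 4.99-fold (limma adjusted p 6.77e-06). It exceeded the hippocampus 4.30-fold (adjusted p 2.46e-05) and the olfactory bulb 3.02-fold (adjusted p 6.09e-05). In unscaled signal this was 454 to 471 units on the cerebellum scans against 64.4 to 72.9 units in the hypothalamus, well above background on every scan. The difference from the hypothalamus was 2.26 among the scans of scan time 1 alone and 2.32 among those of scan time 2. It was smallest, at 1.47, when the background was corrected by normexp, a model-based method run here on the median spot signal. An offset of 50 units was then added, which narrows log2 differences between dim signals. The part of each step in the smaller difference was not tested.

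The hippocampus was the lowest region of 4 of the 10 probes and the highest of 5. Probe 10136+ was low there, at -2.95 and -2.70. It stood at -1.31, -0.94 and -0.80 in the olfactory bulb, at -2.04, -1.68 and -1.52 in the hypothalamus, and at -1.51 and -1.14 in the cerebellum. Both hippocampus arrays lay below all others, and the olfactory bulb and cerebellum arrays overlapped. The olfactory bulb exceeded the hippocampus by 1.81 (SE 0.22), a 3.50-fold difference (limma adjusted p 0.000686), and the cerebellum exceeded it 2.83-fold (adjusted p 0.00238). The hypothalamus exceeded the hippocampus 2.11-fold (adjusted p 0.0107). This last difference, 1.08, fell short of 2-fold without hypothalamus array 3 (0.96), without hippocampus array 1 (0.95, adjusted p 0.0775), under normexp (0.85), and with a block for scan time (0.96). The other pair differences of 10136+ kept their call without any 1 array.

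Probe 11752+ split the regions into 2 levels. Its olfactory bulb arrays stood at -4.16, -4.72 and -4.63 and its cerebellum arrays at -4.35 and -4.42. The hypothalamus arrays stood at -5.28, -5.58 and -5.11 and the hippocampus arrays at -5.28 and -6.33. The olfactory bulb and cerebellum arrays lay above every hypothalamus and hippocampus array and overlapped each other. The cerebellum exceeded the hippocampus 2.68-fold (log2 1.42, SE 0.34, limma adjusted p 0.0186) and the olfactory bulb exceeded it 2.47-fold (adjusted p 0.0211). These differences rested on few arrays: hippocampus array 2, which was not well above background, gave the lowest level, and without it they were 0.90 (adjusted p 0.0798) and 0.78 (adjusted p 0.123). The F test was also lost without cerebellum array 1 (adjusted p 0.0640) or 2 (adjusted p 0.0580), and under normexp the cerebellum difference was 0.41 (adjusted p 0.0502). Without olfactory bulb array 1 the olfactory bulb difference was not called (adjusted p 0.0567).

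Probe 10618+ was lowest in the hippocampus, at -7.61 and -7.55, where it was not well above background on any scan. It stood at -6.25, -6.23 and -6.25 in the olfactory bulb, at -6.59, -5.95 and -6.38 in the hypothalamus, and at -5.85 and -5.98 in the cerebellum. The hippocampus arrays lay below all others (F test, limma adjusted p 0.000827). The probe entered the test only through the cerebellum, its highest region, so this test is given as a description. No fold is given, because the lowest signal that the hippocampus scans marked as well above background exceeded the cerebellum mean of this probe. The F test was not passed under quantile normalization (adjusted p 0.0791) or in the authors' deposited log2 table (adjusted p 0.0788), and under normexp the cerebellum exceeded the hippocampus by 0.06 (adjusted p 0.781). Probe 11661- was likewise lowest in the hippocampus and not marked as well above background there, at -6.16 and -6.08, against -5.65, -5.57 and -5.73 in the olfactory bulb. Its hypothalamus arrays stood at -5.78, -5.67 and -5.56 and its cerebellum arrays at -5.66 and -5.85. The hippocampus arrays did not overlap the others (F test, limma adjusted p 0.0352). The olfactory bulb was at least 1.06-fold higher than the hippocampus, a bound set by the dimmest marked signal. The call of 11661- was lost in 11 of 21 alternatives, 7 of which left out 1 array (adjusted p 0.0501 to 0.195), and under normexp the olfactory bulb lay below the hippocampus (-0.13).

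The hippocampus was instead the high region for 11569- and 11731-. Probe 11569- stood at -1.37 and -1.26 there, at -1.83 to -2.12 in the hypothalamus, at -2.79, -2.18 and -2.17 in the olfactory bulb, and at -3.07 and -2.71 in the cerebellum. Both hippocampus arrays lay above all others, and olfactory bulb array 1 lay among the cerebellum arrays. The hippocampus exceeded the cerebellum by 1.57 (SE 0.23), or 2.98-fold (limma adjusted p 0.0017), a call kept without any 1 array. It exceeded the olfactory bulb 2.09-fold (adjusted p 0.0092), but not at 2-fold without olfactory bulb array 1 (0.86) or under normexp (0.96), nor at the adjusted p without hippocampus array 2 (0.0693). The hypothalamus lay 1.90-fold above the cerebellum (adjusted p 0.0135), under the 2-fold limit.

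Probe 11731- reached -0.24 and -0.52 in the hippocampus. It stood at -0.81, -1.14 and -0.82 in the olfactory bulb, at -1.38, -1.52 and -1.31 in the hypothalamus, and at -1.26 and -1.28 in the cerebellum. Every hippocampus array lay above every other array, and the olfactory bulb came next without overlap. The hippocampus exceeded the hypothalamus by 1.02 (SE 0.14), or 2.03-fold (limma adjusted p 0.00167). The size fell under 2-fold, but not the adjusted p over 0.05, without hypothalamus array 2 (0.96) or hippocampus array 1 (0.88) and under normexp (0.92). The hippocampus lay 1.85-fold above the cerebellum (adjusted p 0.00399).

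The remaining 3 probes passed the F test with spans under 2-fold. Probe 11010+ stood at 1.25 and 1.36 in the hippocampus and at 1.28, 1.31 and 1.24 in the hypothalamus, against 0.87, 0.98 and 0.96 in the olfactory bulb and 0.66 and 0.81 in the cerebellum. Hippocampus and hypothalamus overlapped each other and lay above the olfactory bulb, which lay above the cerebellum. The hippocampus exceeded the cerebellum 1.48-fold (log2 0.57, SE 0.10, limma adjusted p 0.00455). The arrays of this probe spread little, with an SD of 0.03 to 0.11 within a region.

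Probe 11641- was low in the cerebellum alone, at -2.61 and -2.86. The other arrays lay between -2.33 and -2.13 and overlapped. The hippocampus exceeded the cerebellum 1.45-fold (log2 0.53, SE 0.12, limma adjusted p 0.0157). Its F test was lost in 2 of 22 alternatives, 1 of them the fit without cerebellum array 2, which left 1 array of that region. Probe 11712- stood at -2.92 and -3.03 in the cerebellum and at -2.39 and -2.37 in the hippocampus. Its olfactory bulb arrays stood at -2.47, -2.59 and -2.42 and its hypothalamus arrays at -2.80, -2.79 and -2.50, which overlapped. The hippocampus exceeded the cerebellum 1.51-fold (log2 0.60, SE 0.13, limma adjusted p 0.0127). Its F test (adjusted p 0.0261) was lost without any 1 of 5 arrays: olfactory bulb 3 (adjusted p 0.0522), hippocampus 1 (0.0638) and 2 (0.0719), and cerebellum 1 (0.0711) and 2 (0.113).

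Pairs of regions were compared in the same fit, with a call at an adjusted p under 0.05 and at least 2-fold. In all, 7 probes were called in at least 1 of the 6 pairs, and 11 of 77 in the F test or a pair, with 10618+ among them in both cases. The hippocampus and cerebellum differed in the most, 5 of 77 probes against 10.2% of all probes. Of these, 10136+, 10618+, 10627+ and 11752+ were higher in the cerebellum (5.11% of all probes) and 11569- in the hippocampus (5.1%). The olfactory bulb and hippocampus differed in 4 (7.22% of all probes), with 10136+, 10618+ and 11752+ higher in the olfactory bulb (4.53%) and 11569- in the hippocampus (2.69%). The hypothalamus and hippocampus differed in 3 (6.4% of all probes), with 10136+ and 10618+ higher in the hypothalamus (3.79%) and 11731- in the hippocampus (2.61%). Each of these 3 counts includes 10618+, which passed the filter only through the cerebellum and has no bound at 2-fold. Under normexp, the cerebellum minus hippocampus difference of 10618+ was 0.06. It was -0.04 for olfactory bulb minus hippocampus and 0.30 for hypothalamus minus hippocampus. Without 10618+ the counts were 4, 3 and 2 in the same order.

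The hypothalamus and cerebellum differed in 2 probes (10.6% of all probes), 10101+ higher in the hypothalamus (6.22%) and 10627+ in the cerebellum (4.37%). The olfactory bulb and cerebellum differed in 1 (9.42% of all probes), which was 10627+, higher in the cerebellum (3.47%), and no probe was called higher in the olfactory bulb (5.95%). The olfactory bulb and hypothalamus differed in 0 probes by limma, although 9 reached an unadjusted p under 0.05. Of all probes, 7.72% were called in this pair, 4.15% higher in the olfactory bulb and 3.57% higher in the hypothalamus. The arrays of the 2 regions did not overlap in 15 of the 77 probes for the olfactory bulb and hypothalamus (38.2% of all probes) and in 15 for the hypothalamus and hippocampus (40.7%). They did not overlap in 22 for the olfactory bulb and cerebellum (43.0%), 25 for the olfactory bulb and hippocampus (42.5%), 26 for the hypothalamus and cerebellum (52.3%) and 31 for the hippocampus and cerebellum (55.0%). The median difference over the 77 probes lay between -0.05 and 0.06 in every pair, on levels already scaled to each scan's 75th percentile. These pairs share arrays and are not independent of each other.

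Probe 10101+ was the one called in a pair without passing the F test (adjusted p 0.125). It stood at -2.87, -3.36 and -2.90 in the hypothalamus and at -4.55 and -3.99 in the cerebellum. The olfactory bulb arrays stood at -3.42, -4.07 and -3.52 and the hippocampus arrays at -2.89 and -3.99. The hypothalamus and cerebellum arrays did not overlap, but arrays of both other regions fell between or among them. The hypothalamus exceeded the cerebellum by 1.22 (SE 0.36), or 2.34-fold (limma adjusted p 0.0406). The difference was 1.73 among the scans of scan time 1 alone and 0.62 at scan time 2, and with the scan time block its adjusted p was 0.0564. It was called in 4 of the 10 fits that left out 1 array, and the fit without cerebellum array 1 gave 0.94 (adjusted p 0.251). The call was also lost without olfactory bulb array 1 (adjusted p 0.0511) or 3 (0.0573), hypothalamus array 1 (0.108) or 3 (0.113), and cerebellum array 2 (0.0661).

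Scans 1 and 2 of all 4 regions share scan times 1 and 2, whereas scan 3 of the olfactory bulb and hypothalamus has scan time 3 and scan 3 of the hippocampus and cerebellum scan time 4. All 15 differences called in a pair had the same direction among the scans of scan time 1 alone and among those of scan time 2. These scans also made the calls, so the shared direction is no separate evidence. In the scan time block, the averaged arrays of hippocampus and cerebellum were counted under scan time 1 although each holds a scan of scan time 4. With this block, limma called 19 of the 77 probes across the 4 regions, against 53.9% of all probes, and these included the 10 described above. The 9 that joined were 10541+, 10565+, 10664+, 10664-, 11169-, 11319-, 11382-, 11496+ and 11939-. Their spans ran from 0.47 to 1.18 on the log2 scale, and the highest region was the hippocampus for 5 of them.

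Probe 11496+ shows what the block changed. It stood at -0.06, 1.00 and 0.54 in the olfactory bulb, at 0.39, 1.52 and 0.52 in the hypothalamus, at 1.35 and 1.97 in the hippocampus and at 0.26 and 0.70 in the cerebellum. Array 2 was the highest of its region in all 4 regions, and the hippocampus was the highest region at scan time 1 and at scan time 2. The hippocampus exceeded the cerebellum by 1.18 in the region means, by 1.096 among the scans of scan time 1 and by 1.27 among those of scan time 2, and the F test gave an adjusted p of 0.195 without the block and 0.0198 with it (limma). Probe 11382- stood at -1.40, -1.53 and -2.35 in the olfactory bulb and at -2.86, -2.32 and -3.41 in the hypothalamus. The regions met at -2.32 and -2.35, so their arrays overlapped. This 2.14-fold difference was called with the block (adjusted p 0.00496) and was then the only olfactory bulb and hypothalamus difference among the lincRNA exon probes. Its F test gave an adjusted p of 0.149 without the block and 0.0123 with it.

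Arrays 1 and 2 also differed from each other in ways that the regions shared. Array 2 lay above array 1 in all 4 regions for 13 of the 77 probes (18.1% of all probes tested) and below it in all 4 for 16 (40.9% of all probes tested). For 10 of the 77 probes array 2 lay below array 1 by at least 0.5 on the log2 scale in the olfactory bulb, the hypothalamus and the hippocampus, which held for 6.81% of all probes tested. This limit was chosen after the values were seen. The 10 were 10207-, 10477+, 10612+, 11009-, 11274+, 11298-, 11561-, 11658-, 11660+ and 12051-, and in 8 of them cerebellum array 2 lay above cerebellum array 1, against 51.7% of all probes with the same fall in the other regions. In the other 2, cerebellum array 2 was lower too, with a difference of -0.68 for 11660+ and -0.06 for 11274+.

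For 10477+, array 2 minus array 1 was -2.25 in the olfactory bulb, -1.67 in the hypothalamus, -2.68 in the hippocampus and 0.38 in the cerebellum. For 12051- the same differences were -0.96, -0.97, -0.94 and 1.32, nearly equal in the first 3 regions and opposite in the cerebellum. Probe 11274+ gave -3.97, -1.19, -3.54 and -0.06, and its array 2 lost the mark of detection in the hippocampus. None of the 10 probes passed the F test (limma adjusted p 0.402 to 0.921, and 0.103 to 0.945 with scan time as a block). They were picked for a fall between arrays of the same region, which favours a wide spread within regions. That none passed is therefore no separate evidence. The cause of the pattern was not tested.

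The other 66 tested probes passed neither test, with spans from 0.09 to 1.94 and a median of 0.50. Of these, 9 had region means at least 2-fold apart with adjusted p of the F test from 0.143 to 0.735. Probe 10490+ is an example, bright and variable, with olfactory bulb arrays at 1.60, 0.78 and 2.39, hypothalamus arrays at 2.49, 0.70 and 2.08, hippocampus arrays at 2.48 and 2.20 and cerebellum arrays at 2.62 and 2.88 (limma adjusted p 0.406). Its array 2 was the lowest in 3 of the 4 regions, and the regions differed by less than this spread allows to be called. At the other end, 10667+ lay between -0.40 and -0.15 on all 10 arrays, with a span of 0.09. Probe 11622- spanned 0.11, and 11382+ spanned 0.14 while the region means of its partner of opposite sign lay 2.14-fold apart.

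The 12 exon numbers with a probe of each sign allow the partners to be set side by side, each relative to its own mean. For 8 of them both partners were well above background on all scans. The partners had the same highest region for 3 exon numbers, namely 10664, 11711 and 11712 (the hippocampus in each), and the same lowest region for 3, namely 10664, 11109 (with the plus probe not detected) and 11711. Both matches of 11711 rested on olfactory bulb array 3 of the plus probe, at 0.17. The other olfactory bulb arrays of 11711+ had a mean of 2.47, above its hippocampus mean of 2.38. How many matches unrelated probes would give was not worked out. For no exon number did both partners pass the F test without the block, while 4 had 1 partner that passed, the minus probe in each. The plus probes of 11014, 11109, 11170 and 11661 were too dim to be tested, so both partners could not pass there. Exon number 11661 is among the 4, so its minus probe was the only one that could pass. With scan time as a block both partners of 10664 passed (adjusted p 0.00929 for the plus and 0.0213 for the minus probe), each highest in the hippocampus and lowest in the cerebellum.

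While 11569- was highest in the hippocampus, 11569+ stood at -3.34 and -3.45 there and at -3.32, -3.47 and -3.39 in the hypothalamus, against at most -3.79 in the cerebellum. Its olfactory bulb arrays stood at -4.82, -3.71 and -3.65, and the F test was not passed (limma adjusted p 0.249). In both partners hippocampus and hypothalamus lay above the cerebellum without overlap, and olfactory bulb array 1 was the lowest of its region. For exon number 11641 the partners differed in shape: 11641+ spanned 0.21, with the cerebellum at -4.07 and -4.40, overlapping the olfactory bulb and hypothalamus arrays (adjusted p 0.655). For exon number 11712 the plus probe was bright and variable, at 0.60 and 1.90 on the hippocampus arrays, with array 2 the highest of its region in all 4 regions (adjusted p 0.596). Whether partners differed from each other was not tested.

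For 4 exon numbers at least 1 partner was not marked on all scans, among them 11661, described above. Probe 11014- was well above background on all 12 scans, at levels from -2.51 to -2.03, whereas 11014+ was so on no scan. Probe 11109- was likewise marked on all 12 scans, at -4.68 to -3.67, and 11109+ on none. Of exon number 11170, the plus probe was marked on no scan and the minus probe on 4. Probes 11014- and 11109- did not pass the F test (limma adjusted p 0.223 and 0.717). Probes 11014+, 11109+, 11170+, 11170- and 11661+ were too dim to be tested.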

How the data were processed

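The deposited scanner files hold spot intensity, made by the authors with Agilent Feature Extraction 11.0.1.1 per the file headers, which subtracted background and removed a spatial trend from the processed signal. Per the labels, RNA depleted of ribosomal RNA was labelled with Cy3 by random priming. A deposited table holds log2 values of 60804 probes by the authors, the 83 included. Its columns had medians of 8.48 to 8.49 and slopes of 0.974 to 1.02 on the scanner log2 values, so the scale is log2 and uncentred; its normalization was not given in the sources used here. Members and lists were chosen with earlier results of these data known.

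Spots marked as outliers were left out, none of them a member, and log2 processed signal minus each scan's 75th percentile was fitted with limma 3.58.1 in R 4.3.3 (lmFit, eBayes; 6 residual degrees of freedom). For arrays, their number limits the precision. Code was tested on simulated data. Scan times come from the file headers. Replicates are numbered in deposit order. Named probes are those called, those marked on all scans of 1 region and none of another, those marked on no scan, the 3 largest and 3 smallest spans among uncalled probes marked on every scan, and their partners. Others are named where a result turns on them. Alternatives were quantile normalization, the authors' table, normexp (offset 50, on the median spot signal, the only unprocessed one used), other filters, other percentiles, blocks, scan handling, variance priors and fits without each array.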

Additional observations from a re-analysis of the deposited data

How the results depend on the processing

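The 10 probes that differed among the 4 regions became 19 with a replicate block (by scan time, with averaged arrays counted under scan time 1). The share of all probes rose from 36.1% to 53.9% with this block. They became 23 with scan time as a random block and 19 with all 12 scans as separate arrays. Each of these sets included the 10. Without each array in turn, 8 to 12 of the lincRNA exon probes differed among the 4 regions. Shares of all probes are not given for the other settings, so a changed count there is not read as a result about these probes. Replicate numbers follow deposit order, and they equal the first number of the array titles in all 4 regions. Same-numbered arrays had deviations from their region's mean with r from 0.0934 to 0.747 over 13 pairs, all positive. With scan time as a random block, the correlation within a block was 0.642. The lowest r was weak and the labels tie no array to an animal, so the numbers were not taken as pairing animals. A shared animal and a shared scan time cannot be told apart here. For the olfactory bulb against the hypothalamus, where limma called 0 probes (9 at an unadjusted p under 0.05), 1 was called with a replicate block, with the random block, with all 12 scans, with only probes marked on every scan, and with replicates 1 and 2 only, an alternative chosen after the data were seen. The count without each array was 0 to 1, and it was 1 without olfactory bulb array 3 or hypothalamus array 2. Settings that called 0 had 8 to 22 probes at an unadjusted p under 0.05. For the olfactory bulb against the hippocampus the count of 4 became 1 under normexp and 2 with only probes marked on every scan or with the 2 regions alone in the fit (2 to 4 without each array, 2 without hippocampus array 2). For the olfactory bulb against the cerebellum the count of 1 became 3 with the random block and 2 with all 12 scans (1 to 2 without each array, 2 without olfactory bulb array 1). For the hypothalamus against the hippocampus the count of 3 became 0 under normexp in limma (8 at an unadjusted p under 0.05) and was 1 to 3 without each array, 1 without hippocampus array 1. For the hypothalamus against the cerebellum the count of 2 became 1 under normexp, with the replicate block and with replicates 1 and 2 only (1 to 3 without each array, 1 without olfactory bulb array 1 or 3, hypothalamus array 3 or cerebellum array 1). For the hippocampus against the cerebellum the count of 5 became 3 under normexp, 3 with only probes marked on every scan and 9 with all 12 scans (4 to 6 without each array). The setting with all 12 scans counts the nearly identical scans of these 2 regions as separate arrays, so its 9 does not rest on independent arrays. The cause of these changes was not tested, beyond the fewer or more arrays or probes that a setting holds. Where 1 array of a region was left, it was assumed to vary like the other regions. The difference of 11661- between olfactory bulb and hippocampus turned to -0.13 under normexp, and that of 10618+ between the same regions to -0.04 (limma adjusted p 0.799). For 10136+, 10627+, 11010+, 11569- and 11731-, the F test of the 4 regions was passed, and the difference of the highest and lowest region kept its sign, in all 22 alternatives run. On some scans 10618+, 11661- and 11752+ were not well above background, which limits their values there.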

Other observations

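Single arrays of the olfactory bulb stood apart for some lincRNA exon probes. In 13 of the 77 probes (16.9%, against 11.9% of all probes tested) 1 olfactory bulb array lay at least 1 on the log2 scale from the mean of the other 2, which lay within 0.5 of each other, and in all 13 the lone array was the lower. How often the lone array was the lower over all probes was not counted. In the hypothalamus 1 array stood apart in this way for 3 probes (3.90% against 5.02%). The hippocampus and cerebellum, with 2 arrays each, could not be scored by this rule. Probe 11734+ stood at -6.96 on olfactory bulb array 3 and at a mean of -3.61 on the other arrays of that region. Probe 10294- stood at -1.95 on array 1 against 0.54, and 11711+ at 0.17 on array 3 against 2.47. Probes 11060- (array 3, -2.96 against -0.65) and 11595+ (array 1, -6.60 against -4.24) did the same, so that no 1 array accounts for the pattern: 4 of the 13 fell on array 1, 5 on array 2 and 4 on array 3. Of the 5 on array 2, 10207-, 10477+, 10612+ and 11658- were also lower on array 2 of the hypothalamus and hippocampus, as given above. Those falls are thus not particular to the olfactory bulb. No spot of these probes was marked as an outlier by the scanner software. The limits of 1 and 0.5 were chosen after the values were seen, and the cause was not tested.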
